A study of Mus musculus with 16 samples.

Results

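This account follows what trichostatin A (TSA) did to messenger RNA levels in 4 lines of mouse embryonic fibroblasts, with ethanol (EtOH), its solvent, as the vehicle. It rests on 8 of the 16 arrays of the series, chosen by their labelled treatment: 1 TSA array and 1 EtOH array for each line, so that each line served as its own control. The 8 other arrays came from the same lines given the iron chelator dipyridyl (DP), with TSA or without it, and enter in a single closing comparison.

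The lines were primary fibroblasts from mouse embryos, all taken at the same embryonic day. The embryos carry altered alleles of CBP (gene Crebbp) and p300 (gene Ep300), a pair of related acetyltransferases that act as coactivators. Line flox1 was CBP+/flox and line flox2 was p300+/flox, and these are called the control lines. Line triCH1flox1 was CBP CH1/flox;p300 CH1/CH1 and line triCH1flox2 was CBP CH1/CH1;p300 CH1/flox, where CH1 names mutant alleles of the CH1 domain. Every line, the controls included, had been given an adenovirus with Cre recombinase, the enzyme that deletes flox alleles, at passage 3, and had then been grown through at least 100-fold expansion. How completely the flox allele was lost in a culture was not measured here. Subconfluent cells received TSA at 100 ng/ml followed by EtOH after 30 min, against EtOH followed by EtOH, and RNA was taken 3 h later. No line had a replicate culture, so n = 4 is the number of lines.

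Histone deacetylases remove acetyl groups from lysines of histones and of many other proteins, often as the catalytic part of corepressor complexes. TSA, a hydroxamate that blocks the zinc-dependent deacetylases, lets acetylation build up within minutes to hours. Acetylated lysines are bound by bromodomain proteins and are written by acetyltransferases, so the drug acts on a cycle whose enzymes are themselves encoded by genes measured here. Inhibitors of this class are known for both raising and lowering transcripts, for arresting dividing cells and for inducing death of tumour cells.

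The arrays were of similar brightness, with a median signal of 122.1 to 146.4 for TSA and 111.1 to 153.8 for EtOH, after a scaling that set the trimmed mean to 500. A single array stood apart. The EtOH array of flox1 had a ratio of the 3' to the 5' probe set of Gapdh of 2.593, against 0.907 to 1.263 on the 4 TSA arrays and 1.087 to 1.188 on the 3 other EtOH arrays, a measure of how complete the labelled RNA was. All 16 fibroblast markers were expressed, and their summed signal was 186499 to 228123 with TSA and 204408 to 246509 with EtOH. Of the markers of other cells, 4 of 12 for macrophages, 1 of 10 for endothelium, 5 of 10 for epithelium, 5 of 11 for skeletal muscle, 4 of 7 for adipocytes and 0 of 7 for erythroid cells passed the filter on dim probe sets. Their sums never exceeded 2516, and the adipocyte marker Lpl, which rose, was the single one to pass the test. Of 4 tested neural markers of 11 listed, Mbp, a myelin protein, and Nes, an intermediate filament of progenitors, rose with TSA. In flox1 Nes was not higher. Lpl did not pass limma without triCH1flox1, flox2 or triCH1flox2 (adjusted p up to 0.135), nor did Mbp without flox1 or triCH1flox2 (adjusted p up to 0.106), nor did Nes without triCH1flox1, flox2 or triCH1flox2 (adjusted p up to 0.208).

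TSA moved a large share of the transcriptome in a few hours. Of 11481 genes tested by limma on log2(signal + 50) with the line as a block, 1522 rose (13.3%) and 1198 fell (10.4%) at an adjusted p under 0.05. Changes of at least 2-fold were seen for 430 risen and 273 fallen genes, and at least 4-fold for 26 and 13. The direction was alike in all 4 lines for 1467 of the risen and 1142 of the fallen genes. Without the flox1 pair, which removes the array that stood apart, 1877 genes rose and 1523 fell, and without any 1 of the 3 other lines 962 to 970 rose and 744 to 779 fell. Brackets after the counts of a gene list give the risen and fallen members found when 1 line is left out, as ranges over the 4 such fits. Folds throughout are ratios of signal + 50, which understates the change of dim genes. The median change over all genes was 0.03 on the log2 scale. Where a gene had further probe sets that passed the filter, 90.7% of the 1143 for risen genes and 89.5% of the 1328 for fallen genes moved the same way as the brightest one, which was used, and 33.9% and 28.8% passed the test by themselves. Where 4 signals are given for a treatment, they stand in the order flox1, flox2, triCH1flox1 and triCH1flox2.

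Risen and fallen genes began from different levels. The median EtOH signal was 589.5 for risen genes, 1278.3 for fallen genes and 627.1 for all genes tested. Among genes that rose at least 2-fold, 47.9% had a mean EtOH signal under 200, against 2.6% of those that fell at least 2-fold and 19.2% of all genes. The filter has a part in this contrast: 33.7% of the genes that rose at least 2-fold, against 0.7% of those that fell at least 2-fold and 8.8% of all genes tested, reached a signal of 200 on fewer than 2 arrays without TSA, and so were kept by their TSA arrays. The filter also acts the other way. Of the 273 genes that fell at least 2-fold, 61 were kept by their arrays without TSA, against 3 of the 430 that rose at least 2-fold. Over all genes tested, 1008 were kept by their TSA arrays and 1053 by their arrays without TSA. A gene near the floor of the array also cannot be measured as falling.

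Rises and falls were ranked by size among the genes that passed and moved the same way in every line. The 10 largest rises were those of Bcl2l11, Fam117a, Tent5c, Slc2a3, Dzank1, Rhpn2, Mxd1, Chchd10, 6430548M08Rik and Gpr155, between 5.18-fold and 8.03-fold. The next 20 rises, from Abhd15 at 5.13-fold to Onecut2 at 3.84-fold, held several functional kinds. Transport and secretion were represented by Slc40a1, the iron exporter ferroportin, Mfsd12, a carrier of lysosomes, and Hid1, a protein of secretory granules. Slc40a1 had signals of 491, 269.6, 302 and 260.2 with TSA, against 85.3, 12.7, 15.1 and 37.6 with EtOH, a rise of 2.15 on the log2 scale. Protein handling was represented by the deubiquitinases Usp2 and Usp20, the inducible chaperone Hspa1a and the co-chaperone Sgtb. Usp20 had 1162, 1169, 1311 and 1099.5 with TSA, against 322, 229, 220.5 and 274 with EtOH (3.99-fold, SE 0.168 on the log2 scale, limma adjusted p = 1.08e-05), and its 2 further probe sets moved the same way without passing the test. Hspa1a had 2194, 1362, 1133 and 1488 with TSA, against 342, 369.5, 269 and 422 with EtOH. For both genes every TSA array lay above every EtOH array.

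Bex1, a small adaptor protein of neurons, had 496, 553, 511 and 481 with TSA, against 60.3, 72.8, 92.1 and 53.2 with EtOH, and in EtOH it was close to the floor in every line. Cyp46a1, the cholesterol hydroxylase of brain, Rgs9bp, the membrane anchor of a photoreceptor signalling protein, Fgf11, an intracellular FGF homologue, and Sema4d, a membrane semaphorin, rose 4.63-fold, 4.05-fold, 4.87-fold and 4.26-fold. The transcription factors among the 20 were Nr4a1, an orphan nuclear receptor, Nfe2l3, a bZIP factor related to Nrf2, and Onecut2, a homeodomain factor of liver and nervous system. The remaining genes were Abhd15, Depdc7, Epb41l5, a FERM-domain protein of cell polarity, Bmf and Tuft1. The plot of changes by line shows these 20 genes with each line drawn on its own.

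**Figure D1:**
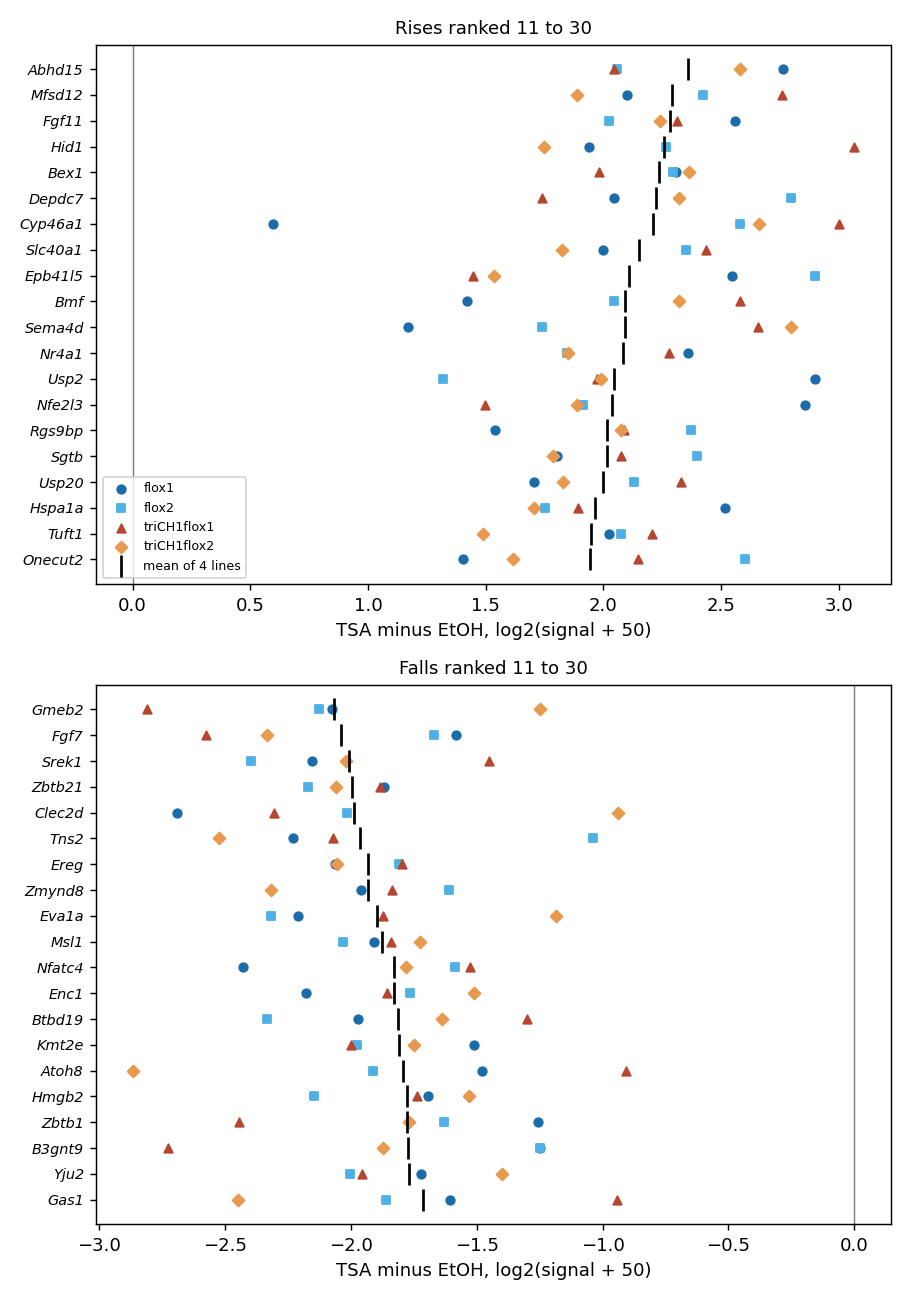
TSA minus EtOH change on the log2(signal + 50) scale (x axis) for the genes ranked 11 to 30 among rises (upper panel) and among falls (lower panel), 1 row per gene, with 1 point for each of the 4 lines and a bar at the mean. Only genes that moved the same way in all 4 lines were ranked, so every point lies on the same side of 0 as its mean. The means were 1.94 to 2.36 for rises and -1.71 to -2.06 for falls.

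The 10 largest falls were those of Cxcl5, Ccdc102a, Sertad4, Clcf1, Tnrc18, Htr1b, Lrfn4, Epc2, Bend3 and Hoxb2, between 4.24-fold and 10.86-fold. Chromatin proteins among the next 20 were Zmynd8, a bromodomain reader, Kmt2e, a member of the MLL family of methyltransferase-like proteins, Msl1, the scaffold of a histone acetyltransferase complex, and Hmgb2, an abundant DNA-bending protein. Kmt2e had 565, 667, 459.7 and 597 with TSA, against 1701, 2766, 1986 and 2126 with EtOH (3.50-fold lower, SE 0.139, limma adjusted p = 5.87e-06), and its 3 further probe sets fell as well. Hmgb2 had 532, 588, 713 and 923 with TSA, against 1833, 2768, 2493 and 2764 with EtOH, with no overlap between the treatments. Gene-specific regulators were Gmeb2, Zbtb21, Zbtb1, Nfatc4, a calcium-responsive factor, and Atoh8, a bHLH factor, and RNA splicing was represented by Srek1 and Yju2.

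The other falls among these 20 were of mixed kinds. Fgf7, a mesenchymal growth factor for epithelium, had 393, 473, 360.5 and 321 with TSA, against 1278, 1611, 2394 and 1818 with EtOH (4.11-fold lower, SE 0.181, adjusted p = 1.43e-05 by limma). Ereg, a ligand of the EGF receptor, had 286, 364, 569 and 324 with TSA, against 1352, 1399.9, 2099.8 and 1506 with EtOH. Gas1, a membrane protein that aids hedgehog signalling and was named for growth arrest, had 960.3, 1376, 854 and 1409 with TSA, against 3025, 5125, 1686 and 7899.5 with EtOH. Its levels differed several-fold between lines under both treatments, and it fell in each line. Tns2, a tensin of focal adhesions, Enc1, a kelch protein, Clec2d, Eva1a, Btbd19 and B3gnt9 completed the set.

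Regulators of apoptosis moved in both directions. The intrinsic death pathway is set off by BH3-only proteins, which neutralise the survival members of the Bcl2 family, and caspases downstream are held back by IAP proteins. Of 28 tested genes of this pathway, 8 rose, 7 fell and 13 did not pass (6 to 8 and 5 to 8). The 8 were the BH3-only genes Bcl2l11 (Bim), Bmf, Bik, Pmaip1 (Noxa) and Bad, the caspases Casp9 and Casp6, and Diablo, an antagonist of IAP proteins. Bcl2l11 had 9878, 8080.1, 9015 and 6487 with TSA, against 1597, 908, 744 and 869 with EtOH (8.03-fold, SE 0.141, limma adjusted p = 1.3e-07), and its 4 further probe sets also rose. Bik had 356, 224, 179 and 236 with TSA, against 25.5, 6.20, 8.30 and 146 with EtOH, so it was barely measured without TSA in 3 of 4 lines. Pmaip1 had 3285, 2528, 1516 and 1022 with TSA, against 1905, 796, 664 and 266 with EtOH, and here the treatments overlapped although each line rose. For Bmf, 330.1 ± 36.2 with TSA and 41.7 ± 28.5 with EtOH (SD, n = 4 each), the second probe set read -0.37 on the log2 scale and did not pass. Bad did not pass limma without triCH1flox1 or triCH1flox2 (adjusted p up to 0.0787), nor did Casp9 without triCH1flox2 (adjusted p = 0.0573).

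The 4 largest falls in this pathway were those of survival genes. Birc3 (cIAP2) had 152, 211, 93.5 and 143 with TSA, against 679, 450.4, 562 and 523 with EtOH (3.06-fold lower, SE 0.235, adjusted p = 0.000395 by limma). Xiap, the direct caspase inhibitor, had 1050.0, 1015, 796 and 1331 with TSA, against 1183, 1937, 2042 and 2638 with EtOH, a smaller fall in flox1 than in the 3 other lines. Bcl2l1 (Bcl-xL) had 817, 789, 855 and 630.1 with TSA, against 1286, 1353, 1251 and 1469 with EtOH, and Mcl1, a short-lived Bcl2 relative, had 3328, 3021, 2752 and 3670.3 with TSA, against 4313, 5119, 5162 and 5048 with EtOH. In both, no TSA array reached the lowest EtOH array. The further probe sets of Bcl2l1 and Xiap did not pass the test, and of the 5 for Mcl1 a single one passed. The other falls were those of Birc2, a further IAP gene, Bcl2l2 (Bcl-w), a survival gene, and Bok, a death effector. Bak1, Bid and Fadd did not pass, with log2 changes of -0.43, 0.41 and -0.58. Birc2 did not pass limma without flox1, triCH1flox1 or triCH1flox2 (adjusted p up to 0.19), nor did Bcl2l2 without triCH1flox1, flox2 or triCH1flox2 (adjusted p up to 0.15), nor did Bok without triCH1flox1, flox2 or triCH1flox2 (adjusted p up to 0.209). Bak1 passed by limma without flox1 or triCH1flox2 (adjusted p down to 0.0269).

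**Figure D2:**
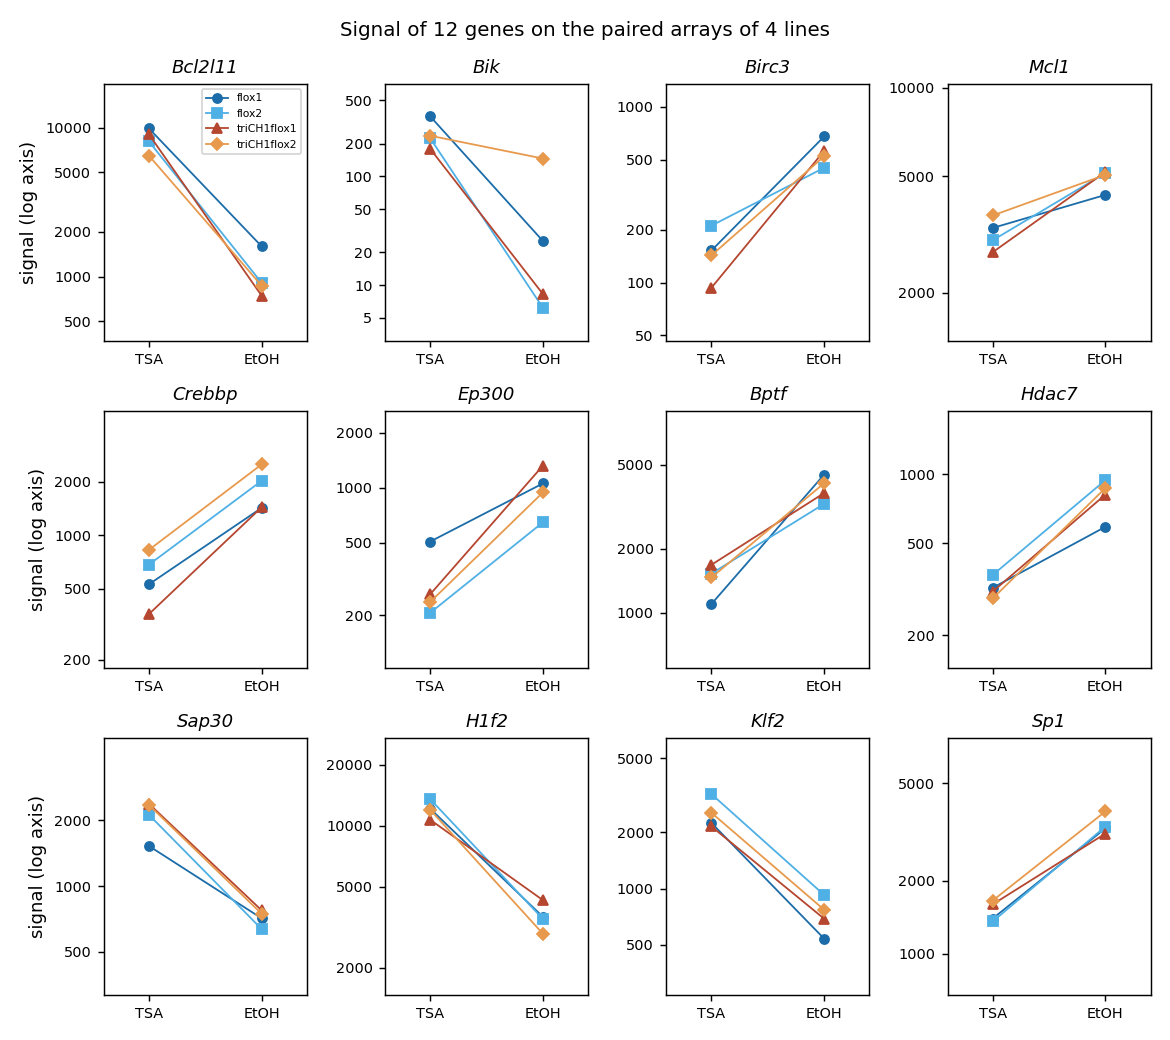
Signal (log axis) of 12 genes on the TSA array (left) and the EtOH array (right) of each line, joined by a line per fibroblast line, with BH3-only and survival genes of the Bcl2 pathway in the upper row and genes of chromatin and transcription factors in the other rows. Bcl2l11, Bik, Sap30, H1f2 and Klf2 are higher with TSA in every line, and Birc3, Mcl1, Crebbp, Ep300, Bptf, Hdac7 and Sp1 are lower in every line.

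All writers and readers of lysine acetylation that passed the test fell. Of 31 tested genes 0 rose and 14 fell (0 and 8 to 16), and the median change was -0.41 on the log2 scale against 0.03 for all genes. The acetyltransferase genes Ep300 and Crebbp, which the lines carry in altered form, had the largest falls. Ep300 had 506, 206, 260.2 and 236 with TSA, against 1054, 645, 1319 and 941 with EtOH (3.01-fold lower, SE 0.197, limma adjusted p = 0.000131). Crebbp had 531, 684, 361 and 828 with TSA, against 1425, 2022, 1437 and 2499.9 with EtOH (2.95-fold lower, SE 0.14, adjusted p = 1.51e-05 by limma), and its 2 further probe sets fell too. Both genes fell in each of the 4 lines, with no overlap between treatments. Brd8, a bromodomain subunit of the TIP60 complex, averaged 382 ± 66.3 with TSA and 1151 ± 323 with EtOH (SD, n = 4 each). Bptf, the reader subunit of the NURF remodeler, averaged 1443 ± 248 with TSA and 3877 ± 528 with EtOH. Brd1, Brd9 and Trim33 did not pass, with log2 changes of -0.41, -0.42 and -0.29. Brd1 passed by limma without flox1 (adjusted p = 0.04).

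Of 17 tested deacetylase and sirtuin genes, 4 rose and 1 fell (2 to 5 and 1 to 2). Of these, the 10 Hdac genes, whose zinc-dependent products TSA inhibits, gave 2 risen and 1 fallen. For so few genes these counts are near the 13.3% risen and 10.4% fallen of all genes. The other 2 risen genes were sirtuins, which use NAD in place of zinc. Hdac7, a class IIa deacetylase, had 321, 365, 309 and 288 with TSA, against 590.5, 942, 815 and 871 with EtOH (2.28-fold lower, SE 0.173, limma adjusted p = 0.000399). The risen genes were Sirt2 (1.97-fold), Sirt7 (1.81-fold), Hdac6, a cytoplasmic tubulin deacetylase (1.68-fold), and Hdac1 (1.30-fold). Sirt2 had 1388, 776, 1302 and 1291 with TSA, against 161, 812, 752 and 919 with EtOH, so its rise rests mostly on flox1, whose EtOH array is the one that stood apart, and in flox2 it was not higher. Hdac11, Sirt6 and Hdac3 did not pass. Sirt2 did not pass limma without flox1, triCH1flox1 or triCH1flox2 (adjusted p up to 0.0954), nor did Hdac1 without flox1, triCH1flox1, flox2 or triCH1flox2 (adjusted p up to 0.114). Hdac11 passed by limma without flox1 (adjusted p = 0.0029), as did Hdac3 without flox1 (adjusted p = 0.00669).

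Corepressor, Polycomb and DNA methylation genes were mixed, with 5 of 41 risen and 11 fallen (2 to 4 and 6 to 14). Sap30, a subunit of the Sin3 deacetylase complex, had 1526, 2119.8, 2380.2 and 2349 with TSA, against 712, 636, 775 and 748 with EtOH (2.76-fold, SE 0.142, limma adjusted p = 2.49e-05), and Sin3a, the scaffold of that complex, rose 1.65-fold. Cbx2, a Polycomb chromodomain protein, rose 2.03-fold, and the DNA methyltransferase Dnmt3b rose 1.96-fold from a mean EtOH signal of 124. Rcor3, a CoREST family corepressor, Bmi1, a Polycomb ring protein, Tle1, a Groucho corepressor, and Kdm1a, the demethylase LSD1, fell 2.30-fold, 1.78-fold, 1.64-fold and 1.63-fold. Tle1 was not lower in flox1. Of 11 tested histone genes 2 rose and 1 fell (1 to 4 and 0 to 1). These shares were 18.2% and 9.1%, against 13.3% and 10.4% of all genes. H1f2, a replication-type linker histone, had 12137, 13533, 10706 and 11981 with TSA, against 3563, 3478, 4304 and 2941 with EtOH (3.37-fold, SE 0.118, adjusted p = 3.16e-06 by limma). Every TSA signal lay far above every EtOH signal. H1f10, a further linker histone, rose 1.53-fold, and Cenpa, the centromeric H3 variant, fell 1.30-fold. Sin3a did not pass limma without flox2 (adjusted p = 0.0524), nor did Dnmt3b without flox1, triCH1flox1 or flox2 (adjusted p up to 0.123), nor did Tle1 without triCH1flox1, flox2 or triCH1flox2 (adjusted p up to 0.195). H1f10 did not pass limma without triCH1flox1, flox2 or triCH1flox2 (adjusted p up to 0.101), nor did Cenpa without triCH1flox1, flox2 or triCH1flox2 (adjusted p up to 0.103).

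Methyltransferase families named by symbol fell more often than the 10.4% of all genes. Among 190 families that share a symbol stem and have at least 8 tested genes, Setd and Smad had the largest share fallen, 5 of 8 each. The Setd family holds SET-domain histone methyltransferases, and Setd5, Setd1b, Setd1a and Setd7 averaged 585 with TSA against 1206 with EtOH, 374 with TSA against 774 with EtOH, 330.0 with TSA against 564 with EtOH and 1299 with TSA against 2046 with EtOH. For Setd5 the 2 further probe sets did not pass. In the Kmt family, Kmt2c rose and 4 of 8 fell, namely Kmt2e, Kmt5b, Kmt2d and Kmt2b, and in the Kat family of acetyltransferases 4 of 8 fell, led by Kat14 at 2.07-fold. Of 11 Atxn genes 5 fell, among them Atxn7 and Atxn7l3, subunits of the SAGA acetyltransferase complex. Of 10 Cnot genes, which encode the deadenylase complex of messenger RNA decay, 4 fell, led by Cnot2. Setd1a did not pass limma without triCH1flox1 or triCH1flox2 (adjusted p up to 0.149), nor did Kmt5b without flox2 (adjusted p = 0.0751), nor did Atxn7l3 without triCH1flox1 or flox2 (adjusted p up to 0.0995).

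Among genes for messenger RNA processing falls outnumbered rises. Of 42 tested splicing genes 0 rose and 15 fell (0 to 1 and 6 to 15), with a median log2 change of -0.21. Rbm39, a splicing cofactor of the U2AF type, had 1034, 909, 948 and 1105 with TSA, against 1579.8, 2763, 2554 and 2840.1 with EtOH (2.32-fold lower, SE 0.157, limma adjusted p = 0.000175). Of its 11 further probe sets 10 moved down, and 1 read 0.07. Srsf4 and Srsf6, serine and arginine rich splicing factors, averaged 828 with TSA against 1681 with EtOH and 3479 with TSA against 5672 with EtOH, and Sf3a2, a core protein of the U2 particle, averaged 1709.7 with TSA against 2864 with EtOH. By symbol, 5 of 9 Srsf genes and 11 of 28 Rbm genes fell, while 3 Rbm genes rose. Hnrnpf, Ptbp1 and Snrnp70 did not pass. Hnrnpf passed by limma without flox1 (adjusted p = 0.0106), as did Ptbp1 without triCH1flox1 (adjusted p = 0.0285).

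Elongation factors went in both directions. Of 29 tested genes 6 rose and 7 fell (4 to 8 and 3 to 6). Subunits of the PAF complex, which travels with RNA polymerase II, led the rises: Paf1 had 1356, 1296, 1728 and 1448 with TSA, against 712, 468, 435 and 605 with EtOH, and Ctr9 had 2777, 3919, 3153 and 3576 with TSA, against 1634, 1231, 1183 and 1380.0 with EtOH. Rtf1 and Nelfe rose 1.77-fold and 1.48-fold. Cdc73, also of the PAF complex, fell 1.49-fold, a value looked up because of its partners. Cdk12, an elongation kinase, Larp7, which binds the 7SK RNA, Nelfa and Cdk7 fell 1.73-fold, 1.66-fold, 1.60-fold and 1.55-fold, although for Cdk12 none of 4 further probe sets passed. Ribosome biogenesis genes were also split, with 10 of 54 risen, led by Noc3l, and 11 fallen (6 to 15 and 6 to 15), led by Gnl3 (nucleostemin) at 1912 with TSA against 4175 with EtOH and Nop56, a box C/D protein, at 2699 with TSA against 5292 with EtOH. Nelfe did not pass limma without flox2 (adjusted p = 0.0629), nor did Cdk12 without flox1 or triCH1flox1 (adjusted p up to 0.163), nor did Nelfa without triCH1flox2 (adjusted p = 0.0918). Cdk7 did not pass limma without triCH1flox1, flox2 or triCH1flox2 (adjusted p up to 0.273), nor did Noc3l without triCH1flox2 (adjusted p = 0.0668). The log2 change of Noc3l was 2.59 in flox1, whose EtOH array is the one that stood apart. It was 0.28 to 0.89 in the other lines.

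Among transcription factors of the embryonic body plan falls outnumbered rises. Homeobox genes of the Hox clusters, which record position along the body axis and stay expressed in cultured fibroblasts, gave 0 risen and 7 fallen of 25 tested (0 and 2 to 6), with a median log2 change of -0.30. Hoxc5 had 14.7, 67.4, 16.8 and 19.4 with TSA, against 268, 164, 132 and 263 with EtOH, which left it near the floor. Hoxc6 had 139, 53.8, 200.2 and 64.3 with TSA, against 368, 376, 421 and 486 with EtOH, although its 2 further probe sets did not pass. Hoxb2 and Hoxc4 also fell, and Hoxa10, Hoxd10 and Hoxb6 did not pass. The 7 fallen genes lie in the HoxB, HoxC and HoxD clusters. Hoxb2 and Hoxc5 were under 200 on every TSA array, and the filter can keep such genes through arrays without TSA. How many of the 25 were kept in that way was not counted. Hoxc5 did not pass limma without triCH1flox2 (adjusted p = 0.0552), nor did Hoxc4 without triCH1flox1 or triCH1flox2 (adjusted p up to 0.119).

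Of 61 other developmental factors 2 rose and 20 fell (2 to 3 and 12 to 20), and the median change was -0.34. Twist1, a bHLH factor of mesenchyme, had 828, 672, 563 and 671 with TSA, against 1725, 1831, 1793 and 1644 with EtOH (2.47-fold lower, SE 0.141, limma adjusted p = 5.3e-05). Prrx1, a homeodomain factor of limb mesenchyme, had 5055, 5362, 3005 and 3938 with TSA, against 9211, 10961, 7037 and 10075 with EtOH. Tbx15, a T-box factor, and Zeb2, a zinc finger repressor of epithelial genes, averaged 678 with TSA against 1623 with EtOH and 413 with TSA against 1034 with EtOH. Twist1, Prrx1 and the receptor Pdgfrb were the 3 of 16 fibroblast markers that fell, and 0 rose. In such bulk samples, fewer cells of a kind and less RNA per cell cannot be told apart. The risen factors were Sox11, a progenitor factor with 1636, 1459, 1315 and 1383 with TSA, against 697, 629, 472 and 301 with EtOH, and Pknox2, a TALE homeodomain protein at 367 with TSA against 162 with EtOH.

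The Kruppel-like and Sp factors, which bind GC-rich promoter elements, gave 2 risen and 6 fallen of 14 (1 to 3 and 5 to 6). Klf2, a factor of quiescent endothelium and T cells, had 2246, 3207, 2151 and 2547 with TSA, against 539, 924, 689 and 769.7 with EtOH (3.33-fold, SE 0.128, limma adjusted p = 4.96e-06). Sp1, the general GC box factor, had 1397, 1359, 1597 and 1656 with TSA, against 3275, 3328, 3116 and 3842 with EtOH (2.22-fold lower, SE 0.114, adjusted p = 2.9e-05 by limma). Klf3, Klf7 and Klf6 averaged 1156 with TSA against 3131 with EtOH, 602 with TSA against 1514 with EtOH and 1517 with TSA against 2702 with EtOH. Klf4 rose 1.34-fold but not in every line. Zinc finger genes of the Zbtb stem, looked up because Zbtb21 and Zbtb1 were among the largest falls, gave 12 fallen and 3 risen of 38. Klf4 did not pass limma without triCH1flox1 or triCH1flox2 (adjusted p up to 0.208).

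Immediate early genes, which respond to growth factors and stress without new protein synthesis, rose more often than they fell, with 10 of 28 risen and 4 fallen (7 to 14 and 3 to 4). Nr4a1 had 2195, 2927, 3303 and 2502 with TSA, against 388, 779, 641 and 659 with EtOH, Fos had 829, 1223, 1621 and 1993 with TSA, against 457, 354, 676 and 469.8 with EtOH, and Atf3 had 368, 543, 497 and 355 with TSA, against 171, 102, 138 and 149 with EtOH. For these 3 genes the treatments did not overlap, and Nr4a3 followed at 284 with TSA against 83.9 with EtOH. The Fos relatives moved the other way: Fosl2 had 1434, 1403, 1474 and 1221 with TSA, against 5556, 4486, 3859 and 3908 with EtOH and Fosl1 had 272, 287, 309.5 and 392 with TSA, against 437, 810.0, 1102 and 799 with EtOH. The second probe set of Fosl2 read -0.59 and did not pass. Mafg fell 1.74-fold and Jun 1.39-fold, although Jun was not lower in triCH1flox2. Dusp1, Arc and Srf did not pass. Nr4a3 did not pass limma without triCH1flox2 (adjusted p = 0.0512), nor did Jun without triCH1flox1 or flox2 (adjusted p up to 0.201). Dusp1 passed by limma without flox1 (adjusted p = 0.00889), as did Arc without flox1 (adjusted p = 0.00178).

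In the Myc network, whose members compete for the partner Max, 4 of 13 tested genes rose and 3 fell (3 to 5 and 2 to 3), with Myc among the fallen and its antagonists Mxd1 and Mxi1 among the risen. Myc had 121, 219.5, 471 and 338 with TSA, against 369, 918, 1191 and 631 with EtOH (2.47-fold lower, SE 0.197, limma adjusted p = 0.000515). It fell in each line, and the treatments overlapped, with flox1 low throughout. Mxd1 had 1086, 1155, 1039.9 and 1106 with TSA, against 322, 273, 144 and 26.9 with EtOH, and Mxi1, its relative, had 1712, 1063, 1182 and 1515 with TSA, against 794, 548, 720.1 and 449 with EtOH. The second probe set of Mxd1 read 0.87 and did not pass. Mxd4, a further antagonist, fell 1.65-fold but was not lower in triCH1flox1, and Mga, a Max partner, fell 1.98-fold. Mycl, a paralogue of Myc, averaged 186 with TSA against 35.5 with EtOH. Of 28 nuclear receptor genes 5 rose, with the 3 Nr4a receptors in front, and 4 fell (3 to 6 and 2 to 3). These shares were 17.9% and 14.3%, against 13.3% and 10.4% of all genes. The fallen receptors included Nr2f2 (COUP-TFII) at 262 with TSA against 806 with EtOH and Nr1h3 (LXR alpha) at 71.0 with TSA against 212 with EtOH. Mxd4 did not pass limma without triCH1flox2 (adjusted p = 0.0878), nor did Mycl without triCH1flox1 or flox2 (adjusted p up to 0.208), nor did Nr1h3 without flox1, triCH1flox1 or flox2 (adjusted p up to 0.139).

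Clock genes changed often, with 7 of 18 risen and 5 fallen (4 to 7 and 2 to 5). The repressors Cry2, Per1 and Cry1 and the clock-controlled Ciart were the largest rises, with Cry2 at 1008, 1099, 1172 and 866 with TSA, against 257, 504, 385 and 215 with EtOH. Per1 had 481, 502, 412 and 425 with TSA, against 109.7, 253, 248 and 129 with EtOH. Bhlhe40, a bHLH repressor that feeds back on the clock, and Csnk1d, the kinase that marks PER proteins, fell 2.40-fold and 2.18-fold. Nr1d2, a nuclear receptor of the clock, fell 1.71-fold but was not lower in flox1, and Timeless fell 1.67-fold. Ciart did not pass limma without triCH1flox1 or triCH1flox2 (adjusted p up to 0.132), nor did Nr1d2 without triCH1flox1, flox2 or triCH1flox2 (adjusted p up to 0.0948), nor did Timeless without triCH1flox1 or triCH1flox2 (adjusted p up to 0.0919).

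Among signalling pathways, TGF beta and BMP signalling had 3 of 43 genes risen and 14 fallen (0 to 4 and 8 to 15). The SMAD proteins carry the signal to the nucleus. Of 8 Smad genes 5 fell, and Smad1 had 979.8, 851, 987 and 767 with TSA, against 2321, 1818, 1797 and 1974 with EtOH (2.14-fold lower, SE 0.132, limma adjusted p = 0.000107). Smad7, the inhibitory member, fell 1.65-fold. The secreted members Fst (follistatin), Inhba (an activin chain) and Grem1 (a BMP antagonist) averaged 744 with TSA against 1839 with EtOH, 3059.9 with TSA against 5719.8 with EtOH and 610.4 with TSA against 1160.1 with EtOH. The receptors Tgfbr1 and Tgfbr3 rose 1.43-fold and 1.37-fold, and Ski, a SMAD corepressor, rose 1.32-fold. In triCH1flox1 Tgfbr1 was not higher. Tgfbr1 did not pass limma without flox2 or triCH1flox2 (adjusted p up to 0.125), nor did Tgfbr3 without triCH1flox1, flox2 or triCH1flox2 (adjusted p up to 0.15), nor did Ski without triCH1flox1, flox2 or triCH1flox2 (adjusted p up to 0.147).

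Among secreted factors falls outnumbered rises, and in a list of receptor and ephrin genes the reverse held. Of 36 growth factor genes 1 rose and 6 fell (1 and 3 to 7), with Fgf7 and Ereg ahead of Vegfc and Pdgfc. Kitl, the ligand of Kit and the single riser, had 1619, 1271, 944 and 1253 with TSA, against 505, 480.3, 549.6 and 574 with EtOH, and neither of its further probe sets passed. Of 22 cytokine genes 1 rose and 7 fell (1 to 2 and 2 to 10), led by the chemokine Cxcl5 and by Clcf1 and Lif of the interleukin-6 family. Lif had 159, 162, 175 and 55.8 with TSA, against 378, 208, 634 and 353 with EtOH. The rise was that of Cx3cl1, a membrane-bound chemokine, at 1456 with TSA against 782 with EtOH. Of 41 receptor and ephrin genes 11 rose and 3 fell (6 to 11 and 2 to 4). The ephrin Efna3 had 1204, 932, 795 and 812 with TSA, against 339, 302, 181 and 121 with EtOH (3.59-fold, SE 0.187, limma adjusted p = 3.48e-05). Efna2, Mertk, a receptor for dying cells, and Ret, a neurotrophic receptor, averaged 503 with TSA against 200.5 with EtOH, 620.4 with TSA against 158 with EtOH and 327 with TSA against 105 with EtOH. The receptor kinases Pdgfrb and Ddr1 fell to 2780.2 with TSA against 5343 with EtOH and 3342 with TSA against 6236 with EtOH. Vegfc did not pass limma without flox1, triCH1flox1 or flox2 (adjusted p up to 0.203), nor did Lif without triCH1flox1 or triCH1flox2 (adjusted p up to 0.0723).

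Genes of the NF-kB response were split, with 6 of 20 risen and 7 fallen (3 to 6 and 5 to 6). Nfkbie, an inhibitor of NF-kB, had 531, 534, 724 and 589.6 with TSA, against 205, 125, 215 and 141 with EtOH, and Nfkb2 and the adhesion molecule Icam1 rose 1.94-fold and 2.24-fold. Ptgs2, the inducible cyclooxygenase, had 6341, 3670.4, 8185 and 3625 with TSA, against 9762, 10858, 17885 and 9062 with EtOH (2.22-fold lower, SE 0.129, adjusted p = 7.1e-05 by limma). Birc2 and Vcam1 fell 1.52-fold and 1.57-fold. The interferon list had 3 of 24 risen and 2 fallen (1 to 3 and 1 to 4), near the 13.3% and 10.4% of all genes, and Irgm1, an immunity GTPase, averaged 168 with TSA against 533 with EtOH. Icam1 did not pass limma without flox2 or triCH1flox2 (adjusted p up to 0.14), nor did Vcam1 without flox2 (adjusted p = 0.126).

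All mitotic genes that passed the test fell. Of 35 tested genes 0 rose and 13 fell (0 and 7 to 16), with a median log2 change of -0.20. Kif2c, a microtubule depolymerase, Ect2, the exchange factor of cytokinesis, Cdc20, an activator of the anaphase complex, and Plk1, a mitotic kinase, had the largest falls. Cdc20 had 3634, 6274, 7569.8 and 7064 with TSA, against 8952, 11272, 12637 and 11985 with EtOH (1.87-fold lower, SE 0.107, limma adjusted p = 9.52e-05). Plk1 had 696, 1184, 927 and 1254 with TSA, against 1258, 1885, 2095 and 2419 with EtOH. Replication genes went both ways, with 9 of 45 risen and 4 fallen (4 to 8 and 3 to 4). Prim2, a primase subunit, and Orc6, of the origin complex, rose 1.71-fold and 1.66-fold, while Dbf4, the activator of the Cdc7 kinase, and Rrm2, a ribonucleotide reductase subunit, fell 1.76-fold and 1.68-fold.

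Cdkn1a (p21), an inhibitor of cyclin-dependent kinases that is widely used as a marker of deacetylase inhibition, did not rise. It had 7793, 5928, 5974 and 4336 with TSA, against 9978, 8691, 6454 and 4697 with EtOH, a log2 change of -0.28 (SE 0.103, limma adjusted p = 0.0654). It was lower in each line without passing the threshold, and its second probe set read 0.09. Of 7 inhibitors of cyclin-dependent kinases Cdkn2d rose 1.92-fold and Cdkn2b fell 1.56-fold, a share of 14.3% each way that is near that of all genes. Of 21 genes of the G1 to S step 3 rose and 3 fell (2 to 3 and 1 to 4). The share was 14.3% each way, against 13.3% and 10.4% of all genes. E2f3 fell 2.17-fold, and Rb1 and Tfdp2 rose 1.71-fold and 1.81-fold, the last with 3 further probe sets near 0. Tyms, the thymidylate synthase, was dim and did not pass (log2 change -0.51, adjusted p = 0.318 by limma). Of 32 genes listed as p53 and its targets 11 rose and 6 fell (10 to 12 and 2 to 6). Both shares, 34.4% and 18.8%, were above the 13.3% and 10.4% of all genes. The rises were led by Pmaip1, Sesn3, Ddb2 and Gadd45a, the lowest log2 change in the list was -0.84, and Mdm2 did not pass. Of 33 repair genes 7 rose and 6 fell (1 to 4 and 2 to 5), and Brca1 had 1097, 1000.0, 1023 and 1314 with TSA, against 423, 423, 489 and 553 with EtOH, and Nbn, its partner in break repair, had 246, 367, 360.2 and 425 with TSA, against 817, 788, 939 and 1263 with EtOH. Tfdp2 did not pass limma without flox2 or triCH1flox2 (adjusted p up to 0.0719). Cdkn1a passed by limma without flox1 (adjusted p = 0.047).

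Genes of glucose, metal and sterol metabolism rose more often than they fell. Of 19 genes of glucose uptake and glycolysis 8 rose and 0 fell (4 to 9 and 0), with a median log2 change of 0.29. The glucose transporter Slc2a3 had 1499, 1374, 1314 and 1167 with TSA, against 352, 130.1, 117 and 88.8 with EtOH, and Slc2a1 had 7248, 7004, 8332 and 7108 with TSA, against 4502, 4013, 5239 and 4343 with EtOH (1.64-fold, SE 0.092, limma adjusted p = 0.000175). The neuronal isoforms Eno2 and Aldoc averaged 416 with TSA against 131 with EtOH and 201 with TSA against 71.2 with EtOH. Among 24 further hypoxia targets 5 rose, led by Bnip3, a mitophagy receptor at 2482 with TSA against 1004 with EtOH, and Ero1a, an oxidase of the endoplasmic reticulum. Adm and Bhlhe40 fell. The metal-binding Mt2 and Mt1 rose 2.37-fold and 1.94-fold, and in the zinc list 6 of 17 rose and 2 fell (3 to 6 and 0 to 2). Mt1's second probe set read -0.26 and did not pass. Aldoc did not pass limma without triCH1flox1, flox2 or triCH1flox2 (adjusted p up to 0.128).

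Cholesterol synthesis had 7 of 28 risen and 2 fallen (5 to 9 and 0 to 3). Hsd17b7 and Dhcr7, enzymes of the later steps, averaged 3294 with TSA against 1175 with EtOH and 1619 with TSA against 700.0 with EtOH, while Hmgcs1, at the entry of the pathway, fell 1.30-fold. Lysosome and autophagy genes had 7 of 52 risen, a share near the 13.3% of all genes, and 1 fallen (4 to 11 and 0 to 2): Neu1, the lysosomal sialidase, had 1087, 856, 1084 and 759 with TSA, against 325, 241, 223 and 102 with EtOH, and Atg12 and Ulk1 rose 2.72-fold and 2.22-fold. Of 40 redox genes 7 rose and 1 fell (5 to 10 and 0 to 2), among the risen Gsta4, a glutathione transferase, and Txnip, an inhibitor of thioredoxin at 3172 with TSA against 1224 with EtOH, and Keap1 fell 1.51-fold. Heat shock genes had 7 of 35 risen and 4 fallen (4 to 10 and 1 to 7), and by symbol 4 of 11 Hspa genes rose and 0 fell. Hmgcs1 did not pass limma without flox2 (adjusted p = 0.0916), nor did Keap1 without triCH1flox1 or flox2 (adjusted p up to 0.0943).

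Genes of the response to protein folding stress went both ways. Of 31 genes 8 rose and 4 fell (5 to 9 and 4). Ern1, the IRE1 kinase and RNase, had 1228, 1155, 1141 and 1227 with TSA, against 477, 429, 433 and 495 with EtOH, with none of 3 further probe sets past the test, and Atf3 and the amino acid carrier Slc7a5 also rose. Atf4 had 2617, 2821, 2851 and 3049.6 with TSA, against 5264, 5563, 5632 and 5670.3 with EtOH (1.94-fold lower, SE 0.0979, limma adjusted p = 3.72e-05). Xbp1, the transcript that IRE1 splices, had 2867, 2757, 2869 and 2899 with TSA, against 6866, 6890.5, 6436 and 5634 with EtOH (2.24-fold lower, adjusted p = 1.41e-05 by limma), and Herpud1, of the degradation machinery, fell 2.27-fold. The chaperone Hspa5 (BiP) did not pass, with a log2 change of 0.13.

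Of 45 tested neuronal genes, 11 rose and 0 fell (6 to 14 and 0), and 18 more of the list were below the filter. The filter favours rises here: 12 of the 45, and 4 of the 11 that rose, were kept by their TSA arrays. Of the 33 kept by the arrays without TSA, 7 rose and 0 fell. Kif5c, a motor protein of axonal transport, had 1132, 1036, 956 and 901 with TSA, against 407, 411, 319 and 259.5 with EtOH, and Rab3d, a vesicle GTPase, averaged 521 ± 52.4 with TSA and 180.3 ± 62.3 with EtOH (SD, n = 4 each). Mapt (tau) had 184.5, 233.8, 215.0 and 241.5 with TSA, against 141.3 and 159.7 in flox1 and flox2 and at most 14.7 in either triCH1 line with EtOH. Without TSA it was thus at the floor in both triCH1 lines and higher in both control lines, and the class difference in its change did not pass. Nefm, Atp1b1 and Cdk5r1 did not pass. Of 12 tubulin genes 5 rose and 0 fell, led by the neuronal Tubb3 and by Tubb2a and Tuba4a, which were abundant in EtOH as well. Mapt did not pass limma without triCH1flox1, flox2 or triCH1flox2 (adjusted p up to 0.179). Nefm passed by limma without triCH1flox2 (adjusted p = 0.0324), as did Atp1b1 without flox1 or flox2 (adjusted p down to 0.0367), as did Cdk5r1 without flox1 (adjusted p = 0.000319).

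Few genes of the fibroblast's structural programme passed the test. Of 22 collagen genes 1 rose and 0 fell (1 and 0 to 1), of 37 matrix glycoproteins 1 rose and 1 fell (1 to 2 and 0 to 3), and of 29 contractile genes 0 rose and 2 fell (0 and 1 to 4), all below the share of genes called in the whole table. The risen collagen was Col8a2 at 318 with TSA against 116 with EtOH, and Col3a1 had a log2 change of -0.18 (SE 0.0752). Of 37 proteasome genes 2 rose and 0 fell (1 to 8 and 0 to 1). Of 26 matrix proteases and inhibitors 2 rose and 5 fell (2 to 3 and 4 to 6): Plat, the tissue plasminogen activator, had 4945, 3614, 4360.0 and 3741 with TSA, against 1267, 1580.5, 1522 and 1222 with EtOH, and Adam19, a membrane metalloprotease, averaged 831 with TSA against 2144 with EtOH by its brighter probe set. Junction genes had 5 of 14 fallen and 1 risen, with the connexins Gjb2 and Gjc1 at 3109 with TSA against 6283 with EtOH and 754 with TSA against 1409 with EtOH. Of 39 Wnt genes 2 rose and 3 fell (1 to 2 and 1 to 7), of 25 Notch and hedgehog genes 2 and 2 (1 to 4 and 2 to 3), of 29 feedback inhibitors of receptor kinases 4 and 5 (3 to 6 and 3 to 8), and of 14 integrins 1 and 1 (0 to 2 and 0 to 1). Of 21 cadherin genes 0 rose and 4 fell (0 to 1 and 1 to 4), of 23 imprinted genes 3 and 2 (2 to 3 and 2 to 3), of 38 ion channels 3 and 1 (2 to 5 and 0 to 2), and of 3 germline genes 0 and 0. The chart of list shares shows 26 of the lists side by side.

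**Figure D3:**
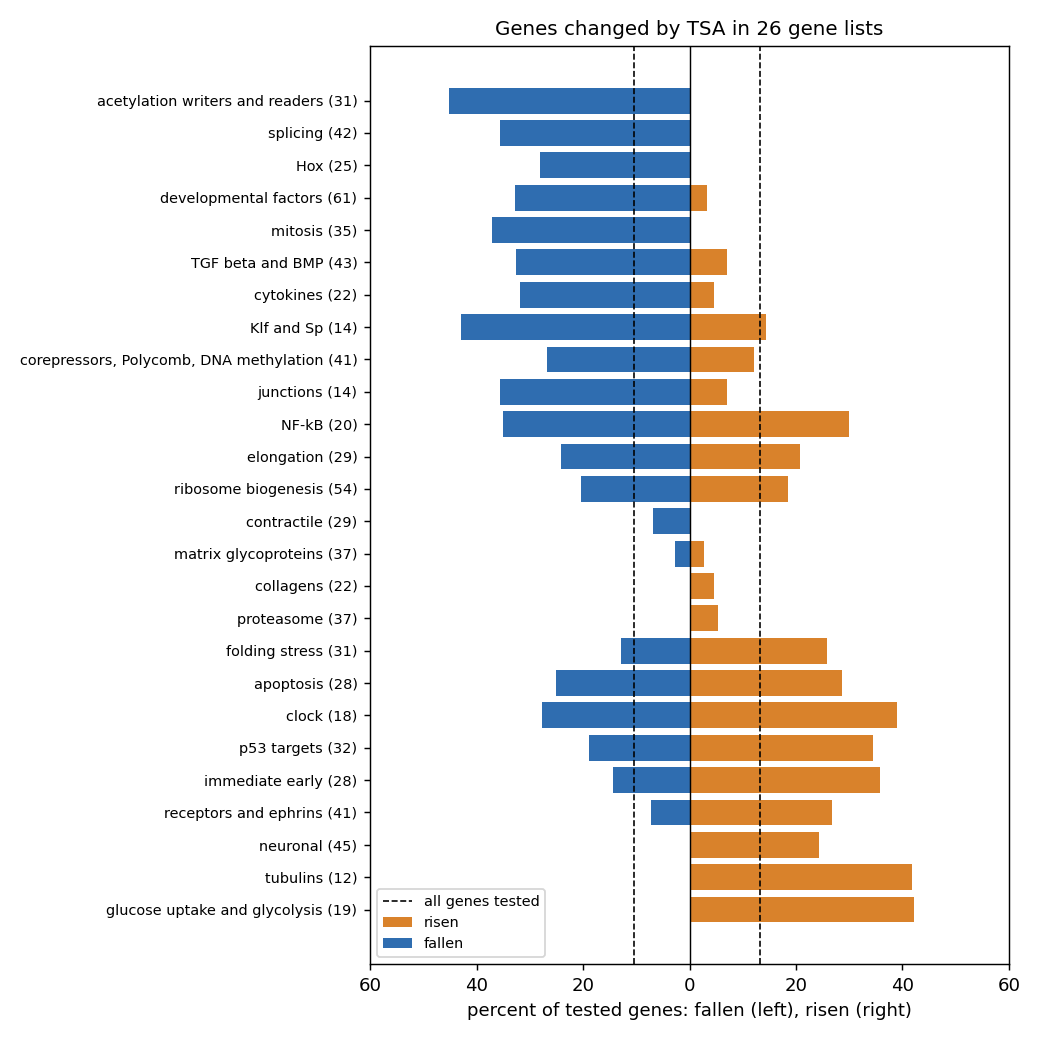
Share of tested genes that rose (right, orange) or fell (left, blue) with TSA, in percent, for 26 gene lists with the number tested in brackets. Dashed lines mark the shares over all 11481 genes, 13.3% risen and 10.4% fallen. Acetylation, splicing, Hox, developmental and mitotic genes extend to the left only or nearly so, and glycolysis, tubulin and neuronal genes to the right only.

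The symbol families with the largest shares risen were small. Inpp genes, which encode inositol phosphate phosphatases, had 4 of 9 risen and 0 fallen, led by Inpp5b at 1599 with TSA against 804 with EtOH. Of 12 Pik genes, subunits of phosphoinositide kinases and their partners, 5 rose, among them Pik3cb, a catalytic subunit at 417 with TSA against 226 with EtOH, and Pik3r1, a regulatory subunit at 1149 with TSA against 738 with EtOH, and Pik3ip1 fell. Abhd hydrolases had 6 of 19 risen and 0 fallen, Stk kinases 5 of 15 risen and 1 fallen, and Stx syntaxins 4 of 13 risen and 3 fallen. Of 8 Nop genes 3 rose and 2 fell, and of 8 Rrp genes 3 rose and 0 fell, both of ribosome assembly. Of 8 Tubb genes 3 rose and 0 fell, and of 13 Rgs genes 4 rose and 0 fell. Of the Snhg host genes of small nucleolar RNAs, 5 of 13 fell and 1 rose. With 190 families compared and as few as 8 genes in each, these shares describe the table and carry no test. Pik3cb did not pass limma without triCH1flox1, flox2 or triCH1flox2 (adjusted p up to 0.193), nor did Pik3ip1 without triCH1flox1, flox2 or triCH1flox2 (adjusted p up to 0.136).

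Promoters of risen genes held GC boxes more often than those of fallen genes. Among genes with a single RefSeq promoter, taken from 250 bases before to 50 bases after the start on build GRCm38.p6, the sequence GGGCGG on either strand was present in 80.8% of 990 risen, 67.4% of 755 fallen and 67.5% of 7417 tested genes, and in 35.2% of all 22862 single promoters of the table. CCAAT on either strand was present in 49.4%, 35.8%, 39.3% and 38.2% of the same sets, and TATAAA in 5.8%, 7.0%, 7.2% and 14.8%. The median GC content was 63.7% for risen and 62.0% for fallen genes. Promoters from 6 genes are printed to show the range, with GC boxes and CCAAT in capitals, each read 5' to 3' in the direction of the gene and credited to RefSeq. The repressor gene Mxd1 (chr6:86669110-86669409, minus strand) held 6 GC boxes and 4 CCAAT, Nr4a1 (chr15:101266596-101266895, plus strand) held 3 GC boxes and the linker histone gene H1f2 (chr13:23738557-23738856, plus strand) held 1 CCAAT and 0 GC boxes. Of the fallen genes, Fgf7 (chr2:126034408-126034707, plus strand) held 1 CCAAT and 0 GC boxes, Crebbp (chr16:4213355-4213654, minus strand) held 2 GC boxes and Ep300 (chr15:81585964-81586263, plus strand) held 1. The 2 GC boxes of Crebbp share 2 bases within 1 marked stretch, as do 2 of the 6 of Mxd1. These shares carry no test, and a match describes letters and not a bound site. GC box and CCAAT overlap by 2 bases in 0.28% of single promoters, and overlaps by 1 base were not counted.
Mxd1: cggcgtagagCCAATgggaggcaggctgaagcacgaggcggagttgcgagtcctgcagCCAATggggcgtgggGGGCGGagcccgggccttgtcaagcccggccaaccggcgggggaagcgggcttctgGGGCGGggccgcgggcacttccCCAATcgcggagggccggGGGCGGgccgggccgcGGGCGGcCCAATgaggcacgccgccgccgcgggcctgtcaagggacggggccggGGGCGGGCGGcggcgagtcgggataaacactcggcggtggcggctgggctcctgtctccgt
Nr4a1: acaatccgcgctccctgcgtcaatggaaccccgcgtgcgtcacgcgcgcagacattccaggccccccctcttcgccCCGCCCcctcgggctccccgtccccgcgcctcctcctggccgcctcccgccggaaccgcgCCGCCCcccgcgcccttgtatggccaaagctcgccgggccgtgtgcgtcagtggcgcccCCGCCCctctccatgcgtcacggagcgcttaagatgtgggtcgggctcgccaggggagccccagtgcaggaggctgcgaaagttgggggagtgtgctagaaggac
H1f2: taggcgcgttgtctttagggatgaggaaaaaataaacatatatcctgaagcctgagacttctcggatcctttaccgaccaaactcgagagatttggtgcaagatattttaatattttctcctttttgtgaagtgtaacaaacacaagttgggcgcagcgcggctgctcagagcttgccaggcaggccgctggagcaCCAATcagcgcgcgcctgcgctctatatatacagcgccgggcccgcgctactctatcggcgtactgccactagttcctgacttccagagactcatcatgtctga
Fgf7: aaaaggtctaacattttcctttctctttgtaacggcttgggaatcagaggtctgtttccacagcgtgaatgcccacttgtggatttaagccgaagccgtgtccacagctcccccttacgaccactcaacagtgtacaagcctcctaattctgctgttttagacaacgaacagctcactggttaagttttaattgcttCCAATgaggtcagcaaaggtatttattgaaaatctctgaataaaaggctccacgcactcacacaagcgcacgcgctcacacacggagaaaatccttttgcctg
Crebbp: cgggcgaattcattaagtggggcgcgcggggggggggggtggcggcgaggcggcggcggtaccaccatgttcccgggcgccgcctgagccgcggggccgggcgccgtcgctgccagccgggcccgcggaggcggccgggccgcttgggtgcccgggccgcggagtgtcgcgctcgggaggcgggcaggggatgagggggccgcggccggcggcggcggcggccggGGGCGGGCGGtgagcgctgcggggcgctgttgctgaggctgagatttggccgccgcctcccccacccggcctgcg
Ep300: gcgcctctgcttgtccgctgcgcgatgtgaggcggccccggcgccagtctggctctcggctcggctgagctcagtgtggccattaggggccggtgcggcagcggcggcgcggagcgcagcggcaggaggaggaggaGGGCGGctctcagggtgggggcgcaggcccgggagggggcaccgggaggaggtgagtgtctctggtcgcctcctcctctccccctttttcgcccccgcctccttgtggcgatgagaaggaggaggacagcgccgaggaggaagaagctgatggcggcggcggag

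**Figure D4:**
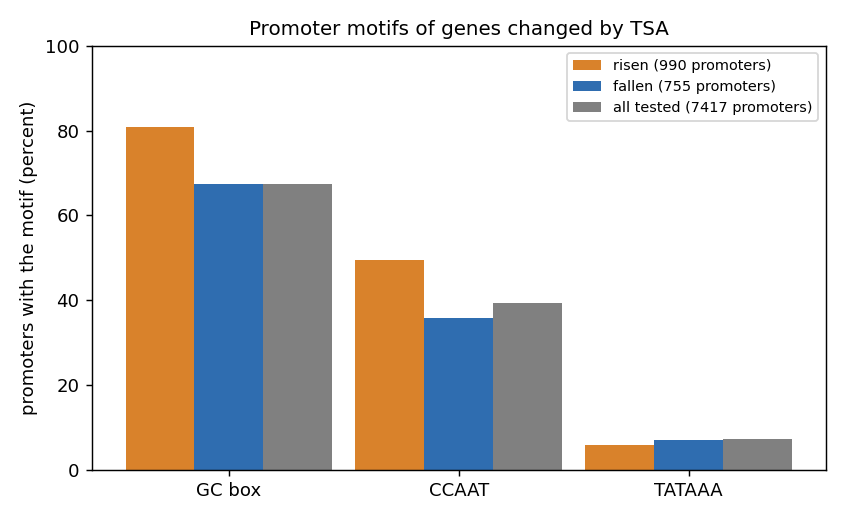
Percent of promoters (y axis, from 0) that hold a GC box, a CCAAT or a TATAAA on either strand, for risen, fallen and all tested genes with a single RefSeq promoter. Risen genes stand at 80.8% for the GC box and 49.4% for CCAAT, and fallen genes at 67.4% and 35.8%.

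The CH1 mutations of CBP and p300 did not give a detectable difference in the response to TSA. The test of the difference, triCH1 minus control with 2 lines in each class, passed for 0 of 11481 genes by limma (0.0%), while 515 had an unadjusted p under 0.05. The median SE of this difference was 0.352 on the log2 scale, against 0.173 for the TSA change itself. Class differences well above 2-fold also missed the threshold, among them that of Mapt, 1.74 on the log2 scale (SE 0.704, limma adjusted p = 0.953), so such differences are not excluded. The lines also differed in Xist, the RNA of the inactive X chromosome, which had 41.8, 111, 5389 and 3160.1 with TSA, against 84.9, 24.6, 2999 and 3525 with EtOH, so class and sex of the embryos cannot be told apart. Leaving out flox2 gave 199 genes higher and 248 lower in the class difference. The control class then rests on flox1 alone, the line with the array that stood apart. Leaving out any of the 3 other lines gave 2 or 3 higher and 0 lower.

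The response to TSA was measured a further time in cells given 100 µM dipyridyl 30 min after TSA, on 8 arrays that share none with the comparison above. TSA_DP against DP gave 2371 risen (20.7%) and 1649 fallen genes (14.4%). Without the block for line these counts were 1496 and 995. Of the 1522 genes that rose with TSA against EtOH, 1287 also rose in dipyridyl, which is 84.6% of the one list and 54.3% of the other. Of the 1198 fallen genes, 935 also fell, 78.0% and 56.7% of the lists. Bcl2l11 had log2 changes of 2.22 with dipyridyl and 3.01 without it, Ep300 -1.48 and -1.59, H1f2 2.06 and 1.75, and Twist1 -0.85 and -1.30. The same lines were used in both settings, so the arrays are new and the cells' genotypes are not.

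In all, 12 genes passed in opposite directions, all of them risen with TSA alone and fallen with TSA in dipyridyl, and several belong to the hypoxia response that iron chelation is known to switch on. Egln3, an oxygen-sensing prolyl hydroxylase, changed by -1.31 with dipyridyl (limma adjusted p = 0.000144) and by 0.96 without it (adjusted p = 0.00391). Bnip3 changed by -0.83 and 1.27, and Slc2a1 by -0.57 and 0.71. Hk1, a hexokinase, and Pfkp, a phosphofructokinase, changed by -0.49 and -0.38 with dipyridyl and by 0.35 and 0.74 without it. The remaining 7 were Dipk2a, Ier3, Nrn1, Pdxp, Tbl2, Tent5a and Zfp395. Sap30 and Mxi1, which also rose with TSA alone, changed by 0.15 and -0.13 in dipyridyl and did not pass there. The difference between the responses was not tested gene by gene. Hk1 did not pass limma without triCH1flox1, flox2 or triCH1flox2 (adjusted p up to 0.213), nor did Dipk2a without flox2 or triCH1flox2 (adjusted p up to 0.0923), nor did Ier3 without triCH1flox1 or triCH1flox2 (adjusted p up to 0.061). Nrn1 did not pass limma without flox1, triCH1flox1, flox2 or triCH1flox2 (adjusted p up to 0.204), nor did Tent5a without triCH1flox1 or triCH1flox2 (adjusted p up to 0.212), nor did Zfp395 without flox1 or flox2 (adjusted p up to 0.1).

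**Figure D5:**
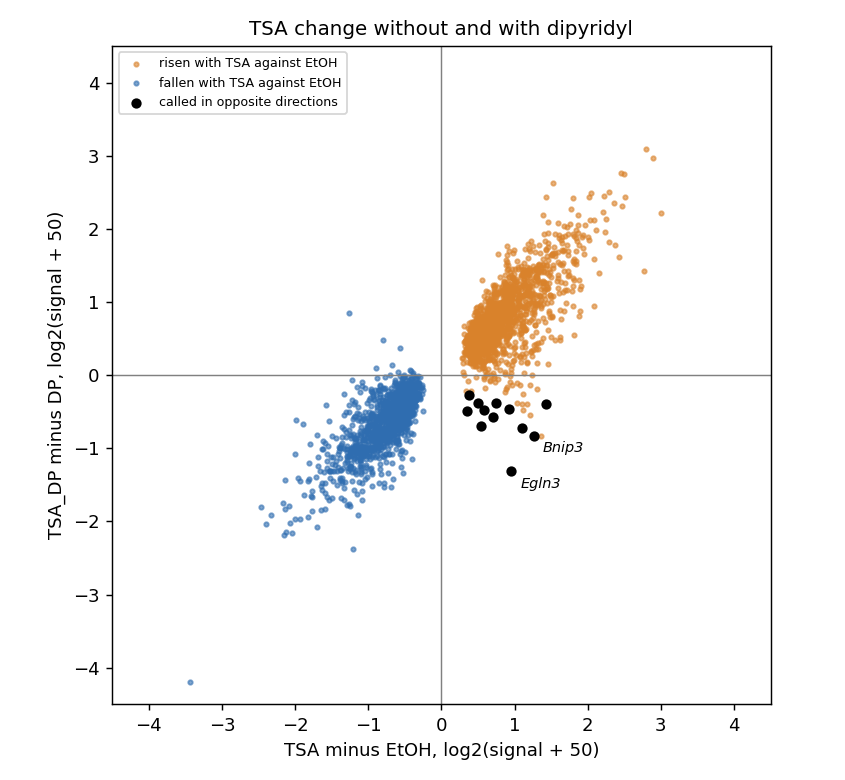
TSA change on the log2(signal + 50) scale with dipyridyl (TSA_DP minus DP, y axis) against the change without it (TSA minus EtOH, x axis), 1 point per gene called without dipyridyl (2720 genes), with risen genes in orange and fallen genes in blue. Most points lie in the 2 quadrants of like sign (97.1% of risen and 99.2% of fallen genes), and the 12 genes called in opposite directions, marked in black, lie below 0 on the y axis.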

How the data were processed

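Total RNA of 4 fibroblast lines was measured on Affymetrix mouse arrays, per the labels with 1 array for every line under each treatment. The deposited values are probe set intensities that, per the labels, came from the statistical algorithm of Affymetrix and were scaled by the authors to a target of 500 on every array, and the 2% trimmed means matched this. No software version was found in those sources. Of 45101 probe sets, 34945 matched exactly 1 gene symbol in the supplied probe annotation and were analysed, while 932 matched several, 9160 matched none and 64 were controls. H1f0 was not analysed here.

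A pseudocount of 50 was added before taking log2. Probe sets with signals of 200 or more on 2 or more of the 16 arrays were retained, 19895 in number, and the one with the highest mean stood for its gene. This left 11481 genes, 5085 of them with several such probe sets. The limma package (version 3.58.1, R version 4.3.3) fitted linear models with the line as a block and empirical Bayes variances with a trend (3 residual and 9.8 prior degrees of freedom). P-values were adjusted by Benjamini and Hochberg over all genes tested, and a gene passed under 0.05. The blocking rests on the TSA and EtOH arrays of a line coming from the same cells. Deviations from the treatment means correlated at 0.175 to 0.218 between the 2 arrays of a line and at -0.219 to 0.054 between lines. The lines come from different embryos and genotypes, and no line had a replicate culture. The p-values thus set the change against its spread between lines, which includes that of cultures and arrays. Each gene's variance was drawn toward the trend over all genes.

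The gene lists, 60 in number, and the genes compared were chosen with earlier results of these data known. Genes are named by rank among those that passed and moved alike in every line (the 10 largest each way in short, ranks 11 to 30 described). They are also named by list (up to 4 risen, 4 fallen and 3 not passed) and by symbol stem (10 families each way with at least 8 tested genes). Cdkn1a, Myc, Tyms, Crebbp and Ep300 were always given. Xist, Bad, Casp9, Casp6, Diablo, Bok, Bcl2l2, Birc2, Cdc73, Kmt2c, Lpl, Mbp, the Zbtb stem and the genes called in opposite directions with dipyridyl were looked up after values were seen. Figures used Python 3.11.15 and matplotlib 3.10.9. The result of 1 gene list is not reported here. The fitting steps were tested on simulated data.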

Additional observations from a re-analysis of the deposited data

Results flagged for a closer look

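Of the TSA changes of 278 named genes, 12 had 1 line far from the 3 others, about what chance gives at 1 in 20. Slc2a3 changed by 1.95 in flox1 (2.98 to 3.13 in the other lines), Tent5c by 2.11 in flox2 (2.94 to 3.09), Sap30 by 1.05 in flox1 (1.56 to 1.66), H1f10 by 0.01 in flox1 (0.77 to 0.88), Orc6 by 1.31 in flox1 (0.48 to 0.62) and Mt1 by 0.62 in triCH1flox2 (1.04 to 1.09), on the log2 scale. Among fallen genes, Gnl3 changed by -0.90 in flox2, Kmt5b by -2.39 in flox2, Timeless by -0.14 in flox2, Atxn7l3 by -0.06 in triCH1flox2 and Keap1 by -0.22 in triCH1flox2. Srf, which did not pass, changed by -0.08 in triCH1flox1. On the EtOH array of flox1 the ratios of 3' to 5' probe sets were 2.593 for Gapdh and 2.066 for actin, against at most 1.188 and 1.399 on the other EtOH arrays. Of the genes with a divergent line, Slc2a3, Sap30, H1f10 and Orc6 diverge in flox1, and the part of that array in their values was not tested.

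Among the 278 named genes, 12 rose with TSA alone and fell with TSA in dipyridyl in all 4 lines, and that difference was not tested. They are the same 12 that were named because they passed in opposite directions. Genes not named were not checked in this way. Their log2 changes with dipyridyl and without it were -0.83 and 1.27 for Bnip3, -0.69 and 0.54 for Dipk2a, -1.31 and 0.96 for Egln3, -0.49 and 0.35 for Hk1, -0.37 and 0.49 for Ier3, and -0.27 and 0.38 for Nrn1. For Pdxp they were -0.39 and 1.44, for Pfkp -0.38 and 0.74, for Slc2a1 -0.57 and 0.71, for Tbl2 -0.46 and 0.92, for Tent5a -0.48 and 0.58, and for Zfp395 -0.72 and 1.10.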

How the results depend on the processing

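Against 1522 genes risen and 1198 fallen with TSA, a pseudocount of 16 gave 1491 and 1176, one of 200 gave 1562 and 1231, no filter gave 1258 and 971, a filter at 500 gave 1345 and 1138, quantile normalization gave 1426 and 1222, the mean of all passing probe sets gave 1416 and 1014, and all 16 arrays in the fit gave 1809 and 1432. Without a variance trend 1048 rose and 763 fell, with 719 of those 763 also fallen in the fit with the trend, and the cause was not tested. With no block for line, that is without pairing the arrays of a line, TSA gave 1239 and 974, and TSA with dipyridyl gave 1496 and 995 against 2371 and 1649 with the block. The other settings changed no such count by over 1.5 times. With 1 of the 4 lines left out, and so fewer arrays, TSA gave 962 to 1877 risen and 744 to 1523 fallen, the class difference 2 to 199 higher and 0 to 248 lower against 0 each, and TSA with dipyridyl 1885 to 2160 and 1262 to 1515.

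Of 251 named genes that passed, 180 did so in the same direction under every alternative that could be fitted, and 0 reversed. The most calls were lost with no variance trend (37), no block (29), no filter (29), the mean of probe sets (28) and a line left out (10 to 40). Hspa5, which did not pass, turned to -0.082 with the mean of its probe sets. Dim genes are limited by the floor of the arrays, and 4 lines limit the precision of every change.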
